A study of Schizosaccharomyces pombe with 6 samples.

Results

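The better expressed intergenic RNAs of fission yeast are 224 of the 404 RNAs that the authors' table describes as intergenic, among 1286 non-coding RNAs and 6345 genes in all. They were chosen by an SPNCRNA identifier, a description that begins with "intergenic RNA" and a mean level of at least 2 log2 CPM (fragment counts scaled to library size), that is 4 CPM, with SPNCRNA.1343 left out. The members were thus selected on their level, which is described here and not tested. The libraries came from 3 cultures labelled *mkt1Δ* (strain EHB2196) and 3 labelled wild-type (strain EHB7), all grown in YES medium at 32°C. Strain EHB2196 is h+ and has *mkt1* replaced by NatR, and EHB7 is h+ with *mkt1* intact. Both also carry ade6-210, leu1-32, ura4-D18 and an ade6+ reporter inserted at otr1R. Mkt1 is a post-transcriptional regulator, and the study asked which RNAs depend on it. Each level is a single deposited mean over all 6 libraries of both strains. It says nothing of how *mkt1Δ* and wild-type cells differed, and no strain comparison was made here. With no library taken on its own, sequencing depth and replicate spread are unknown, and the level of *mkt1* cannot check the labels.

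Intergenic long non-coding RNAs are transcribed by RNA polymerase II from the stretches between protein-coding genes, and many are capped and polyadenylated as mRNAs are. In fission yeast a number of them act in *cis*: transcription of an RNA that starts ahead of a gene can run into that gene's promoter and keep it repressed. Others start from the same nucleosome-depleted region as a gene and run away from it on the opposite strand, and others again are mRNAs of the next gene with a longer leader. The libraries here were made from polyadenylated RNA, so they report on the polyadenylated forms.

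The lowest levels were the most frequent among the members. Between 2 and 3 log2 CPM there were 90 of the 224, between 3 and 4 there were 61, between 4 and 5 there were 36, between 5 and 6 there were 23, and 14 stood above 6. The median was 3.23 log2 CPM and the highest value was 8.61 log2 CPM, for SPNCRNA.1115. Just above the threshold stood SPNCRNA.1068 with 2.01, SPNCRNA.1164 with 2.02, SPNCRNA.1287 with 2.05, SPNCRNA.1441 with 2.06 and SPNCRNA.1596 with 2.06 log2 CPM. Just below it stood SPNCRNA.1352 with 1.99, SPNCRNA.1147 with 1.98, SPNCRNA.1025 with 1.97, SPNCRNA.860 with 1.97 and SPNCRNA.316 with 1.96 log2 CPM. The levels ran on without a gap there, so the threshold separates no natural groups.

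**Figure D1:**
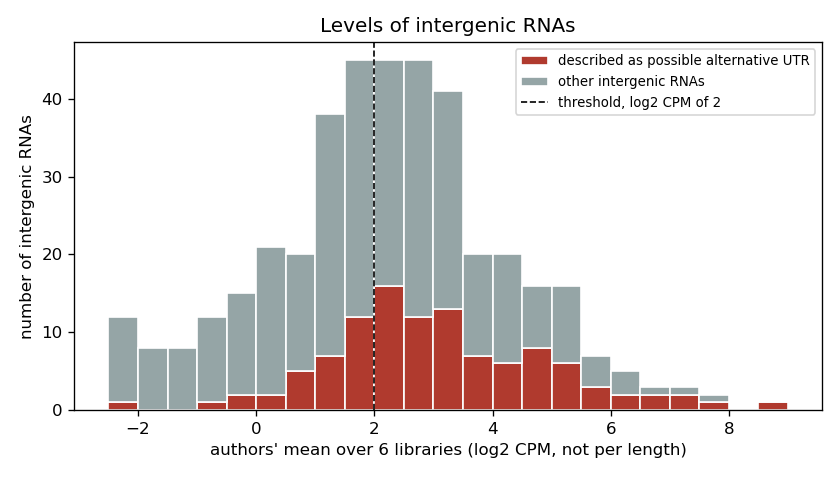
Number of intergenic RNAs (vertical axis) by the authors' mean level over 6 libraries in log2 CPM (horizontal axis), with RNAs described as a possible alternative UTR in red and the others in grey, and SPNCRNA.1343 left out. The 224 RNAs to the right of the dashed line at 2 are the better expressed ones, and the bars on either side of the line are of like height.

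A CPM value counts fragments and grows with the length of an RNA, so levels of different genes are compared below per kilobase, as log2 CPM minus log2 of the length in kilobases. Lengths, names, strands and neighbours came from the ASM294v3 annotation, matched by identifier, which placed 219 of the 224 members. The other 5, SPNCRNA.1531, SPNCRNA.59, SPNCRNA.1366, SPNCRNA.681 and SPNCRNA.893, had levels of 5.86, 5.03, 4.66, 2.91 and 2.65 log2 CPM and enter none of the values that follow. Per kilobase, the members had a median of 3.19 log2 CPM (interquartile range 2.58 to 3.98) and 5042 protein-coding genes had a median of 5.33 (interquartile range 4.33 to 6.53). Of those protein-coding genes 9.06% lay under the members' median, while 18 of the 219 members lay above the median of the protein-coding genes. Less expressed intergenic RNAs had a median of 1.04 (n = 172) and antisense RNAs one of 1.98 log2 CPM per kilobase (n = 665). The less expressed ones lie under the threshold that the members passed, so that gap follows from the rule. Antisense RNAs and protein-coding genes were not cut by level, so their medians are not like for like with that of the members.

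The description of 79 of the 224 members (35.3%) adds "possible alternative UTR", meaning that the RNA may be an mRNA of the adjoining gene with a longer untranslated region. Among the 179 less expressed intergenic RNAs 30 (16.8%) carry these words. Within the members the share was 31.1% of those from 2 to 3 log2 CPM, 32.8% from 3 to 4, 38.9% from 4 to 5, 39.1% from 5 to 6 and 57.1% of the 14 above 6. The words thus became more frequent towards the top of this level, which is not scaled to length. Per kilobase the medians lay close together, 3.25 log2 CPM for the 77 matched members with these words and 3.13 for the other 142. Genes are not replicates, so neither this nor any other share over RNAs was tested.

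The label "intergenic" did not hold for all members in the ASM294v3 annotation, where protein-coding genes are drawn with their untranslated regions. In that annotation 119 of the 219 (54.3%) overlapped a protein-coding gene by at least 1 base, and 100 did not. On the same strand 50 (22.8%) did so, and on the opposite strand 78 (35.6%), with 9 doing both. Among the 172 less expressed intergenic RNAs the same-strand overlap was found for 20 (11.6%) and the opposite-strand overlap for 57 (33.1%). The same-strand difference, 11.2 percentage points, turned to -1.36 when RNAs described as a possible alternative UTR were left out of both sets. That value rests on few RNAs, 1 of 142 members and 3 of 145 less expressed ones. Nearly all RNAs with same-strand overlap carry the description, 49 of 50 and 17 of 20, so leaving them out all but empties the group. Overlaps with other long non-coding RNAs are not part of these counts: 165 of the 219 members (75.3%) overlapped one on the opposite strand in ASM294v3 and 11 on the same strand, against 109 (63.4%) and 8 of the 172 less expressed intergenic RNAs. Below, "overlap" refers to protein-coding genes alone. All 219 members had a single exon, and 93, 75 and 51 of them lay on chromosomes I, II and III.

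**Figure D2:**
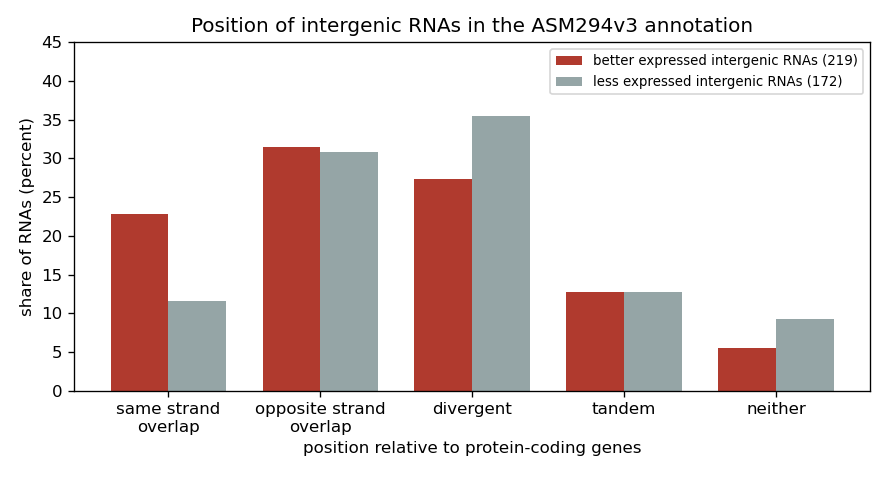
Share of RNAs in percent (vertical axis) in 5 exclusive positions relative to protein-coding genes (horizontal axis), for 219 better expressed (red) and 172 less expressed (grey) intergenic RNAs. Opposite-strand overlap is counted here only without same-strand overlap. Divergent means a gene on the opposite strand that starts within 1000 bases of the RNA's start. Tandem means a gene on the same strand within 1000 bases. The red bar is the higher one for same-strand overlap, at 22.8% against 11.6%. Without RNAs described as a possible alternative UTR this difference turned to -1.36 percentage points, from 1 of 142 and 3 of 145 RNAs.

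Most RNAs that overlapped a gene on their own strand lay ahead of it. Of these 50, 45 started ahead of the gene and ended within its beginning, and the other 5 followed the gene and began within its end. The stretch in common was short, with a median of 42 bases or 3.89% of the RNA, and it was under 10% of the RNA for 45 of the 50. Only SPNCRNA.646, which ends within *mug121*, and SPNCRNA.1220, which ends within SPCC191.05c, shared more than 50% of their length. The words "possible alternative UTR" stood in the description of 49 of the 50, the exception being SPNCRNA.1463 ahead of *sce3*, which encodes a translation initiation factor.

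These RNAs held most of the top of the list. By level per kilobase, 7 of the 10 highest members were described as a possible alternative UTR, and each of the 7 overlapped a gene on its own strand. The highest, SPNCRNA.1071, had 7.59 log2 CPM per kilobase and ends 64 bases within *hsp9*, a heat shock protein gene with 10.70. SPNCRNA.1259 and SPNCRNA.1258 flank *tpx1*, the thioredoxin peroxidase gene that detoxifies hydrogen peroxide and signals to the stress kinase Sty1. The first ends within the start of *tpx1* and had 7.01, and the second begins within its end and had 7.02, while *tpx1* itself had 10.46 log2 CPM per kilobase.

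Further down, the same layout was seen at genes of several functions. SPNCRNA.1115 had 6.63 log2 CPM per kilobase ahead of SPCC1235.01, annotated as an uncharacterized protein, which had 9.42. SPNCRNA.511 had 6.46 ahead of *mpg1*, which makes GDP-mannose for the cell wall and had 10.74. SPNCRNA.964 had 6.34 ahead of *tif51*, the gene of translation factor eIF5A, which had 9.56. All of these genes were themselves among the highly expressed ones, above the upper quartile of the protein-coding genes, 6.53 log2 CPM per kilobase.

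SPNCRNA.995 differed, with 5.78 log2 CPM per kilobase against 6.24 for SPAC27D7.11c, a But2 family gene. At the low end, SPNCRNA.1068 had 0.59 ahead of *gas5*, a glucanosyltransferase of the cell wall with 4.86. SPNCRNA.1441 had 2.33 ahead of *atf1*, the transcription factor of the stress response, with 5.56 log2 CPM per kilobase. SPNCRNA.1479, ahead of the nuclear poly(A)-binding protein gene *pab2*, had 3.68 against 7.36 for *pab2*.

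In 48 of the 50 pairs the RNA lay below its gene per kilobase, with a median difference of -3.13 on the log2 scale (RNA minus gene) and a range of -6.91 to 0.23. The exceptions were SPNCRNA.646, with 5.58 against 5.36 for *mug121*, and SPNCRNA.1156, with 4.46 against 4.46 for *oca2*. Of all protein-coding genes only 9.06% lay under the members' median, so a gene above the RNA is not particular to these pairs. Among the less expressed intergenic RNAs the gene was above the RNA in 20 of 20 same-strand pairs. Those RNAs are held to low levels by the rule, which favours this order. Across the 50 pairs the levels per kilobase moved together, with Pearson's r = 0.66 and Spearman's rho = 0.61. This is given as a description across genes, which are not independent replicates, and the points share the same 6 libraries and, where the annotations overlap, the same stretch of genome. Fragments of the gene that extend into the RNA can add to its count. Reads that fall on 2 genes of one strand are dropped in the union mode of counting that the authors used, and the part either played in these levels was not tested.

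**Figure D3:**
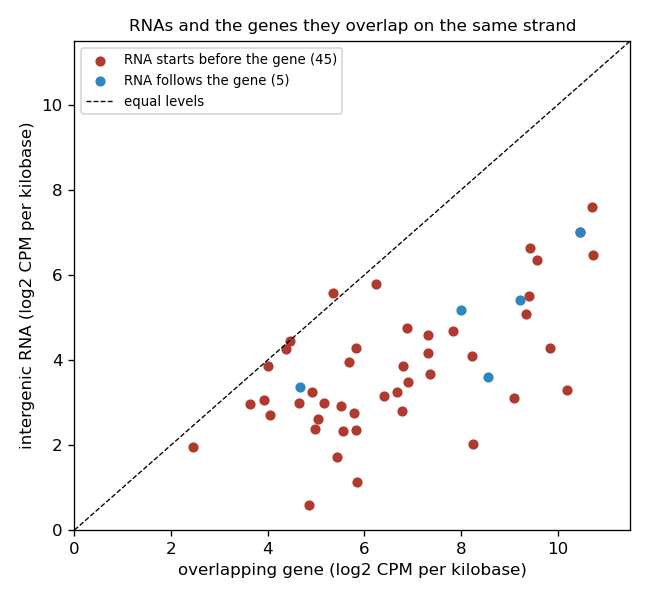
Level of the intergenic RNA (vertical axis) against that of the protein-coding gene it overlaps on the same strand (horizontal axis), both in log2 CPM per kilobase from the authors' mean over 6 libraries, for 45 RNAs that start before the gene (red) and 5 that follow it (blue). Nearly all points lie under the dashed line of equal levels, 48 of 50, and the highest RNAs stand with highly expressed genes.

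The members that overlapped a gene on the opposite strand did so mostly at an edge. Over the 78, the median share of the RNA under such genes was 19.8%, 18 had at least 50% covered and 3 were covered whole, while 12 reached 2 or more genes. The rule holds the less expressed intergenic RNAs to low levels, which favours a gene above the RNA. For them the gene with the longest overlap was above the RNA per kilobase in 56 of 56 pairs with a level. For the members this held in 72 of the 78, with a median gene level of 5.19 log2 CPM per kilobase. Only 9.06% of all protein-coding genes lay under the members' median, so this order is not particular to overlapping pairs. In the other 6 of the 78 the RNA was the higher one. SPNCRNA.873, 87.0% of which lies opposite *eta2*, had 3.42 against 0.90 for *eta2*, and SPNCRNA.953 had 5.18 against 3.20 for SPAPB18E9.04c. SPNCRNA.1452 lies whole within *mug124*, a gene named for its rise in meiosis, and had 4.58 against 4.13 log2 CPM per kilobase. The libraries were stranded, but whether counting used the strand is not given in the sources used here, so reads where 2 genes overlap on opposite strands are uncertain.

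Among the 100 members with no overlap, 60 had a divergent gene, one on the opposite strand whose near end lies within 1000 bases ahead of the RNA's start, at a median distance of 158 bases. Their median level was 3.23 log2 CPM per kilobase, and that of the divergent genes was 5.71 (n = 59 with a level). The highest of them was SPNCRNA.1014 with 6.29, which starts 104 bases from *gwt1*, a gene of GPI anchor synthesis with 7.60. SPNCRNA.1083 followed with 5.78, 80 bases from *clr5*, a gene known for silencing at the mating-type locus, with 6.92 log2 CPM per kilobase. A divergent gene was found for 60% of the members without overlap, against 61.6% of the 99 less expressed intergenic RNAs without overlap, values that lie close together.

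A gene downstream on the same strand is the layout of some RNAs known to repress in *cis*, but not of *rse1*, described below. Within 1000 bases it was found for 58 of the 100 members without overlap. The same held for 50 of the 99 less expressed intergenic RNAs without overlap. Those downstream genes had a median of 5.60 log2 CPM per kilobase beside the members, close to the 5.33 of all protein-coding genes. The gene lay below the RNA in 8 of the 58 pairs. The widest of these were SPNCRNA.1616 with 2.59 ahead of SPBC887.16 with -0.83, SPNCRNA.1510 with 2.56 ahead of SPBC1921.04c with 0.07, and SPNCRNA.720 with 4.08 ahead of SPAC22A12.17c with 1.82 log2 CPM per kilobase. Beside the less expressed intergenic RNAs the gene lay below the RNA in 2 of the 49 pairs with a level. The levels of those RNAs are low by the rule, which favours a higher gene. The gene was thus the higher in most pairs of either set, and only 9.06% of all protein-coding genes lay under the members' median.

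The annotation gives names to 4 members, and 3 of these are described there by an effect on a nearby gene. *nam1* (SPNCRNA.1459), described as repressing *byr2*, had 5.42 log2 CPM per kilobase. It begins within the last 76 bases of *mlo3*, an RNA-binding protein gene with 9.22, and ends 210 bases before *byr2*, the MAP kinase kinase kinase of mating, which had 4.26. *rse1* (SPNCRNA.111), described as a repressor of *ste11*, had 4.92 log2 CPM per kilobase over 3776 bases. The *ste11* gene, the transcription factor that starts sexual differentiation, lies on the other strand 1269 bases ahead of *rse1* and had 4.82. Both RNAs thus stood above the gene they are described as repressing, *rse1* only slightly so. The authors' description of *nam1* adds "possible alternative UTR", and fragments of *mlo3* that extend into *nam1* can add to its count. The part these played in its level was not tested.

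The third is *fbp1-ot3* (SPNCRNA.1325), an RNA transcribed ahead of *fbp1*, which encodes fructose-1,6-bisphosphatase of gluconeogenesis and is repressed by glucose. It had 4.78 log2 CPM per kilobase, ends 39 bases before *fbp1*, and lay below *fbp1*, which had 5.84. Like *nam1*, it is described by the authors as a possible alternative UTR. The fourth, *omt3* (SPNCRNA.130), is annotated as one of the RNAs that form foci with Smp proteins in meiosis. With 6.10 log2 CPM per kilobase it was among the 10 highest members, above its neighbours *omt2* with 4.72 and *mei2*, the master regulator of meiosis, with 3.68. The cells were growing exponentially, so this level of *omt3* was measured outside meiosis. It is a mean over both strains, so the rank and the order against *omt2* and *mei2* need not hold within *mkt1Δ* or within wild-type cells.

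Levels of some known non-coding RNAs can be set beside those of the members. Of 13 known non-coding RNAs looked for by name, 6 had a level in the table, and *omt3* and *nam1* are members. The others were *rrk1*, the RNA of RNase P, with 5.43, *mrp1*, the RNA of RNase MRP, with 5.57, the telomerase RNA *ter1* with 4.02 and *srp7*, the RNA of the signal recognition particle, with 4.06 log2 CPM per kilobase. These structural RNAs are mostly not polyadenylated, so poly(A) selected libraries may understate them. Their levels here are thus no scale for the abundance of the members. SPNCRNA.1483, annotated as the primary transcript of a small nucleolar RNA, had 3.82, within the interquartile range of the members.

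Members ranged from 322 to 5123 bases with a median of 1167, and the less expressed intergenic RNAs had a median of 772.5 bases. The rule used a level that is not scaled to length, which favours long RNAs, so this difference is not independent of it. Within the members, length and level per kilobase were inversely ordered (Spearman's rho = -0.32 over 219 RNAs, a description), and length enters the level per kilobase as its divisor. The threshold also admits short RNAs only at high levels per kilobase, so the rule itself favours this order. Length and log2 CPM not scaled to length went the other way (rho = 0.28). The shortest were SPNCRNA.1444 with 322, SPNCRNA.1035 with 355, SPNCRNA.1511 with 364, SPNCRNA.907 with 392 and SPNCRNA.966 with 440 bases, and had between 3.25 and 4.65 log2 CPM per kilobase. The longest, SPNCRNA.1164, was also the lowest per kilobase of all members, at -0.33. It was followed in length by SPNCRNA.671 with 4025 bases and 3.27 log2 CPM per kilobase, SPNCRNA.1115 with 3950 bases and *rse1*, so long members occurred at both ends of the range.

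**Figure D4:**
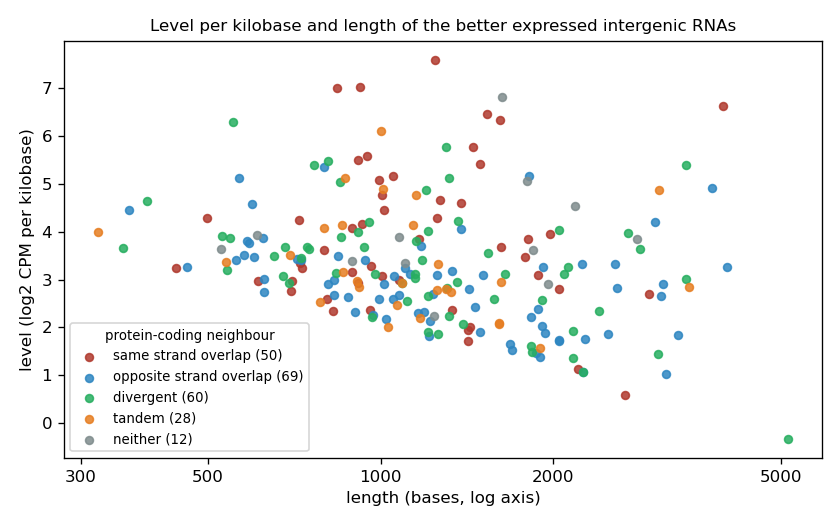
Level in log2 CPM per kilobase (vertical axis) against length in bases (horizontal axis, log scale) for the 219 members with an annotated position, coloured by position relative to protein-coding genes with the number of RNAs in the legend. The highest point is SPNCRNA.1071 at 7.59 and the lowest is SPNCRNA.1164 at -0.33, and each position spans a wide range of levels.

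The remaining 12 members had no overlap with a protein-coding gene and no divergent or same-strand gene within 1000 bases, and had a median of 3.75 log2 CPM per kilobase. SPNCRNA.863 was the highest of them, and the fourth of all members, with 6.81. It lies with SPNCRNA.862, at 3.62, and SPNCRNA.861, at 3.35, in 1 long interval between *cbm1* and SPAPB2C8.01. With only the genes of the deposited table set in chromosome order, 49 of the 219 members stood next to another member. SPNCRNA.935 and SPNCRNA.934, with 4.86 and 3.64, form such a pair between *rpl1002*, a ribosomal protein gene, and *per1*, a permease gene. SPNCRNA.671 and SPNCRNA.672, with 3.27 and 3.01, both lie beside *rad15*, a DNA helicase gene of repair and transcription. In each of these intervals the adjacent members lie on opposite strands and overlap each other. Whether counting used the strand is not given. If it did not, union mode would drop the reads in the stretch that such members have in common, which was not tested. Such members stood close together in level in some intervals and apart in others.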

How the data were processed

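RNA-seq libraries of 3 *mkt1Δ* and 3 wild-type cultures, labelled as biological replicates, entered the table. The authors used cutadapt 1.8.3 for trimming, STAR 2.5 for alignment (genome ASM294v2), HTSeq 0.6.1 in union mode for counting and edgeR 3.12.0 for the comparison, and left out genes with under 20 reads. The deposited table gives 1 mean log2 CPM per gene over the 6 libraries, and this column alone was used. Its 3 other columns hold the authors' comparison of the strains (fold change, p-value and adjusted p-value) and were not used, so the strain comparison foreseen for counts per library was not made and no test was run.

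Names, strands, lengths and neighbours came from the RefSeq annotation of ASM294v3, another build, so none of its coordinates or sequences are given. By identifier 6299 of 6345 genes matched. Levels per kilobase used the summed exon length. An overlap was at least 1 base, and neighbours were counted within 1000 bases. The neighbour search was tested on simulated data. The members and lists were chosen with earlier results of these data known. The RNAs named in the text were those with a given name, the extremes of level and length, those beside the threshold and those next to another member. Members named for the gene they overlap or neighbour were picked with their values in view. Alternatives tried were thresholds of 1 and 3 log2 CPM, other length scalings, a window of 500 bases and leaving out possible alternative UTRs. Promoter motifs and GC content were not analysed here. Computations ran in Python 3.11.15 with numpy 2.4.6, pandas 2.3.3 and scipy 1.17.1.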

Additional observations from a re-analysis of the deposited data

How the results depend on the processing

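With a threshold of 3 log2 CPM the number of better expressed intergenic RNAs was 134, with 1 it was 307, and a description holding the words anywhere gave 224. Without length scaling the members' median was 3.23 log2 CPM, and by gene span it was 3.19. Members exceeded the less expressed intergenic RNAs in median length by 394.5 bases, by 286.5 with a threshold of 1, by 419.5 with one of 3, and by 448.5 without possible alternative UTRs. Of members without overlap, 88% had a divergent or same-strand gene within 1000 bases and 75% within 500 bases. The share that overlapped a gene on the same strand exceeded that of the less expressed by 11.2 percentage points, by 14.9 with a threshold of 1 and by 11.0 with one of 3. It reversed to -1.36 without possible alternative UTRs, as nearly all overlapping RNAs carry that description. Only 1 of 142 members and 3 of 145 less expressed RNAs then overlapped, too few to give a direction. Leaving these RNAs out, and the other thresholds for the overlap, were added after seeing the data. The replicate numbers went unused. No paired analysis was possible because each level is 1 mean over all libraries. For the same reason other normalizations, filters and leaving out replicates were not run. The motif alternatives and GC content were not run, as no sequence was read. The depth of each library is unknown.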
